A study of Mus musculus with 4 samples.

Results

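Regulators of G protein signalling (RGS proteins) were followed in mouse effector Th1 and Th17 cells, each sorted by surface CD30, which belongs to the TNF receptor superfamily. The genes described are Rgs1, Rgs2, Rgs3, Rgs10, Rgs14, Rgs16 and Rgs19, chosen by name, and every probe set annotated to them was used: 16 probe sets for 7 genes, of 45037 probe sets for 18193 genes in all. Splenic CD4 T cells with low CD44 were grown for 6 days toward Th1 cells (IL-2 at 30 U/ml, IL-12 at 100 U/ml and anti-IL-4 at 1 µg/ml) or toward Th17 cells (IL-6, IL-1β and IL-23 at 10 ng/ml each, with anti-IL-4 and anti-IFN-γ at 10 µg/ml each). Both cultures were then sorted into CD30low and CD30high cells, which gave 4 groups. By the methods the starting cells carried a T cell receptor transgene specific for ovalbumin and were stimulated with ovalbumin peptide on irradiated splenocytes depleted of T cells. The labels give low CD62L for the starting cells of both CD30low groups and high CD62L for those of both CD30high groups, whereas the methods give high CD62L throughout, so by the labels each CD30 comparison is also one of different starting cells.

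Heterotrimeric G proteins carry signals from seven-pass receptors, among them the chemokine receptors that steer T cells. A bound receptor loads the alpha subunit with GTP, and the alpha subunit signals until it has hydrolysed it. RGS proteins bind the loaded alpha subunit through their RGS domain and speed up this hydrolysis, which shortens the signal. In lymphocytes they are best known for dampening migration toward chemokines, and transcription of several of them changes when T cells are activated.

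Each group was measured on 1 array, so no difference has a replicate error and no test between groups was made. Values are linear probe set signals, and each gene is given by its probe set of highest mean. A gene was called higher or lower when 2 arrays differed at least 2-fold and the brighter one had a signal of at least 300, the signal limit named in the study; a signal under 100 counted as 100 in any ratio. The only gauge of technical precision was how well the 2 brightest probe sets of a gene agreed. Both were read on the same arrays, so it leaves out any spread between repeated arrays as well as between cultures. The SD per probe set of the log2 ratio was 0.24 for the CD30 comparison in Th1 cells (3071 genes), 0.20 in Th17 cells (3010 genes), 0.30 between the lineages in CD30low cells (3110 genes) and 0.33 in CD30high cells (3112 genes). Each array enters 2 of the 4 comparisons, so these are not independent of each other.

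The sorted populations carried T cell transcripts on all arrays, with Cd3d between 14031 and 31942 and Cd4 between 582 and 773. Tbx21, the Th1 lineage factor, was at 2190 (CD30low) and 2352 (CD30high) in Th1 cells and at 281 and 243 in Th17 cells. Il17a, by contrast, was at 37.7 and 49.4 in Th1 cells and at 1398 and 14443 in Th17 cells. Of 6 Th1 genes, 4 passed the 2-fold rule as lower in Th17 cells, among CD30low and among CD30high cells. Hlx went the other way among CD30high cells, with 126 in Th1 and 440 in Th17 cells. Only 2 of 6 Th17 genes were named, and Ccr6 had 49.2 and 172 in Th1 and 136 and 333 in Th17 cells. Markers of other cells moved with the CD30 gate of the Th17 cells. Of 8 neutrophil genes, 6 reached 100 on a Th17 array, and the list summed to 9405 (CD30low) and 2385 (CD30high) there, against 45.8 and 237 in Th1 cells. The neutrophil genes Mmp8 and Elane stayed below 100 throughout. For 6 fibroblast genes the sums were 248 and 287 in Th1 and 1030 (CD30low) and 7759 (CD30high) in Th17 cells. Only Lum and Dcn of them reached 100, while the collagen genes Col1a1, Col1a2 and Col3a1 were below 100 on all arrays. Across the same gate the basophil gene Mcpt8 had 85.7 and 470.2. Of its list, Fcer1a (151 and 29.4) and Cpa3 (301 and 227) went the other way, and Ms4a2 was below 100 on all arrays. The MHC class II genes H2-Aa and H2-Eb1 had 197 and 544, and 122 and 298. H2-Ab1, the brightest of that list, was nearly level at 859 and 940. Cd74 had 145 and 184, and H2-DMa had 490 and 743. Between the lineages the natural killer and CD8 list differed, with sums of 9345 and 7062 in Th1 and 1013 and 743 in Th17 cells. Klrd1 (6199 and 4360) and Klrk1 (2359 and 2108) made up most of the Th1 sums. Ncr1 and Cd8a were below 100 on all arrays, and Cd8b1 was between 350 and 703. The 5 T cell genes measured summed to 65469 (CD30low) and 52481 (CD30high) in Th1 and to 49515 and 40259 in Th17 cells. The part of these shifts in the values given here was not tested, and in such bulk samples fewer cells of a type and less RNA per cell cannot be told apart. The Y-linked genes Eif2s3y, Kdm5d and Uty were above 300 on both Th1 arrays and below 100 on both Th17 arrays, while Xist was at 14620.4 and 16222 on the Th1 and at 22350 and 22613 on the Th17 arrays, so lineage and the sex-linked material of the source mice cannot be told apart.

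Of the 7 RGS genes, 5 had a signal of at least 300 on all arrays, Rgs2 had one on some arrays and Rgs16 was below 100 on every array. Of 14 further RGS genes looked for, 12 were named in the annotation, 8 of these were below 100 on all arrays and only Rgs11 reached 300. In Th17 cells 4 of the 6 members that reached 300 passed the fold rule between CD30high and CD30low cells, 2 higher and 2 lower. Among all 7786 genes that reached 300 there, 7.6% passed, 3.94% higher and 3.66% lower. In Th1 cells 1 of 6 passed, and it was lower, where 1.28% of 7813 genes passed, 0.794% higher and 0.486% lower. The members were picked with earlier results of these arrays known, so these counts describe them and carry no test. Across the same pair of Th17 arrays the neutrophil sum was lower and the fibroblast sum higher in CD30high cells. H2-Aa, H2-Eb1 and Mcpt8 had higher signals there, but H2-Ab1 was nearly level. Fcer1a and Cpa3, of the same list as Mcpt8, had lower signals. The part of these markers in the member values was not tested.

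**Figure D1:**
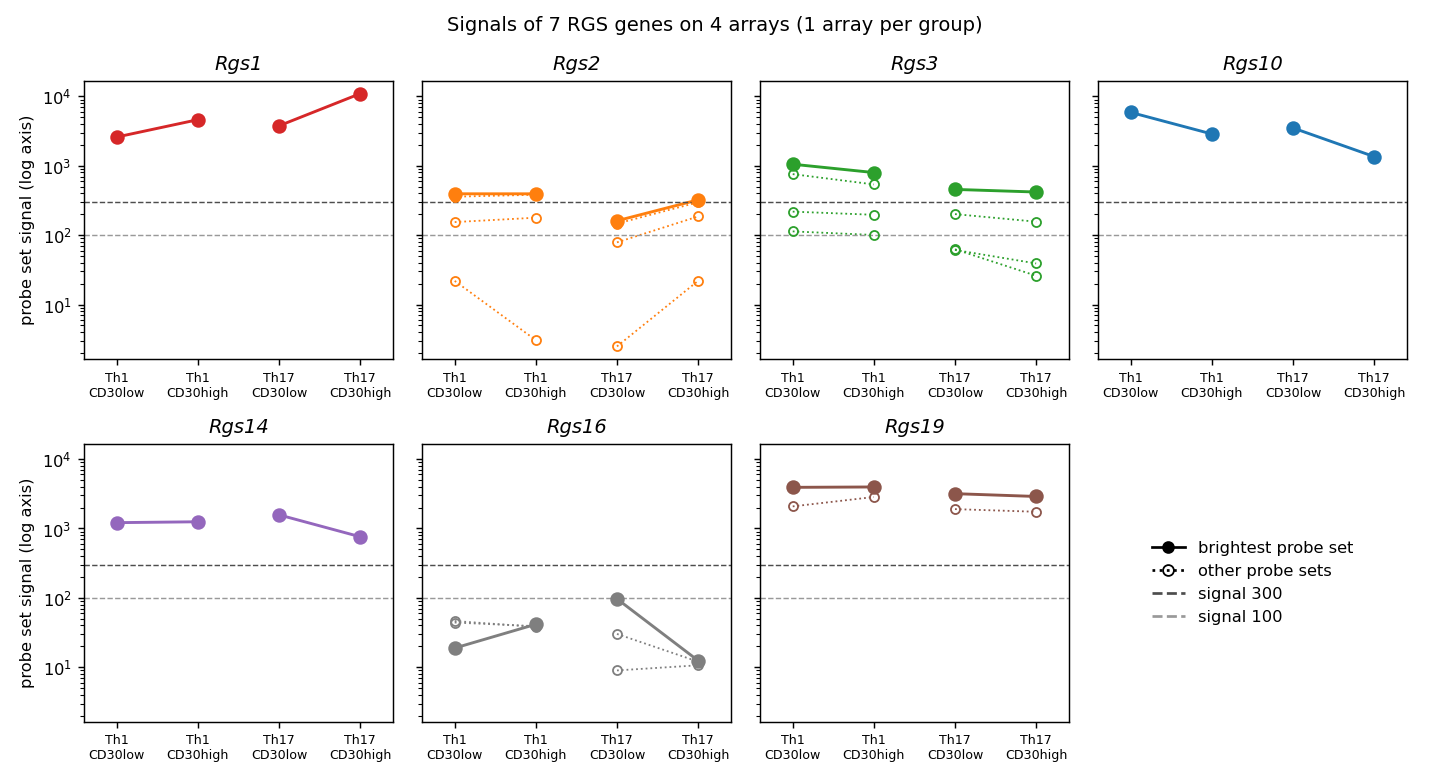
Probe set signals (log axis) of the 7 RGS genes on the 4 arrays, 1 array per group. Filled points are the brightest probe set of a gene, open points its other probe sets, and lines join the CD30low and CD30high arrays of a lineage; Rgs1 was brightest in CD30high Th17 cells at 10925 and Rgs10 had its lowest signal there at 1354, while Rgs16 stayed under the line at 100.

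Rgs1, Rgs2, Rgs3 and Rgs16 belong to the R4 subfamily, whose members other than the long forms of Rgs3 are little more than an RGS domain with a short leading helix. Rgs1, which acts on Gi and Gq alpha subunits and restrains chemokine responses of lymphocytes, had signals of 2591 (CD30low) and 4608 (CD30high) in Th1 and of 3759 (CD30low) and 10925 (CD30high) in Th17 cells. Both CD30high arrays were brighter than both CD30low arrays. In Th17 cells the difference was 2.91-fold (log2 ratio 1.54) and passed the rule, with rank 129 from the top among 7786 genes. In Th1 cells it was 1.78-fold (log2 ratio 0.83) and did not pass at 2-fold, although Rgs1 ranked 99 from the top of 7813 genes. The log2 ratio was larger in Th17 than in Th1 cells by 0.71, a difference that was not tested. The array had no other Rgs1 probe set, so these values rest on 1 probe set. CD30high Th17 cells stood 1.25 (log2) above the next array, CD30high Th1. The middle pair, CD30high Th1 and CD30low Th17, differed by 0.29, less than the largest probe set SD of 0.33.

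Rgs2, which prefers Gq alpha subunits, had the same signal in CD30low and CD30high Th1 cells, at 394.3 and 394.1. In Th17 cells it had 161 (CD30low) and 323 (CD30high), which placed CD30low Th17 cells at the bottom and left the other 3 arrays within 0.29 (log2) of each other. The Th17 difference of 2.00-fold lay on the limit of the rule. Another probe set had 358 and 382 in Th1 and 147 and 298 in Th17 cells. It gave 2.03-fold and missed the rule only through its brighter signal. One more had 154 and 179 in Th1 and 78.8 and 186 in Th17 cells, and the last was below 100 on all arrays. The direction in Th17 cells was therefore shared by the 3 probe sets above background, but the call was not. It was also lost with the arrays scaled to their medians (log2 ratio 0.95) and with a floor of 200 (0.69). Between the CD30 log2 ratios of the lineages the difference was 1.00 for Rgs2, and it was not tested.

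Rgs3, which acts on Gi and Gq and is made in long and short forms, differed mainly between the lineages. Its brightest probe set had 1052 (CD30low) and 798 (CD30high) in Th1 and 456 (CD30low) and 418 (CD30high) in Th17 cells. Both Th1 arrays were above both Th17 arrays, which differed from each other by only 0.13 (log2). A second probe set showed the same order with a wider gap, at 757 and 538 in Th1 and 201 and 156 in Th17 cells. Another 2 probe sets were at 218 and 197, and at 113 and 101, in Th1 cells and below 100 in Th17 cells. The CD30 log2 ratios were -0.40 in Th1 and -0.13 in Th17 cells and did not pass. All 4 probe sets were lower in CD30high than in CD30low cells in both lineages before the floor was applied. Which Rgs3 transcripts each probe set reads was not analysed here.

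Rgs16, an R4 member that is induced in activated T cells in many settings, was not above background. Its 3 probe sets had signals from 9.01 to 96.7 over the 4 arrays and did not share an order. No fold is given for it.

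Rgs10 and Rgs14 belong to the R12 subfamily, which acts on Gi alpha subunits. Rgs10, one of the smallest RGS proteins, had signals of 5870.4 (CD30low) and 2868 (CD30high) in Th1 and of 3501 (CD30low) and 1354 (CD30high) in Th17 cells. Both CD30high arrays were dimmer than both CD30low arrays, the reverse of Rgs1, although the middle pair, CD30low Th17 and CD30high Th1, lay only 0.29 (log2) apart. The difference was 2.05-fold in Th1 cells (log2 ratio -1.03) and 2.59-fold in Th17 cells (log2 ratio -1.37), and it passed in both. Of all genes, 22 passed lower in both lineages, and Rgs10 was the only member among them; 27 genes passed higher in both and none was a member. In Th1 cells Rgs10 was the 34th gene from the bottom of 7813, and in Th17 cells the 170th of 7786. The Th1 value lay close to the limit, although it passed with both other scalings of the arrays (log2 ratio -1.22 by medians and -1.01 by quantiles). Like Rgs1, Rgs10 had 1 probe set.

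Rgs14, a scaffold with an RGS domain, Ras-binding domains and a GoLoco motif that holds inactive Gi alpha subunits, had signals of 1212 (CD30low) and 1248 (CD30high) in Th1 cells. In Th17 cells it had 1571 (CD30low) and 759.8 (CD30high). The lowest and the highest signals were thus both those of Th17 cells, with the Th1 arrays between them and 0.04 (log2) apart. The Th17 difference was 2.07-fold (log2 ratio -1.05) and passed, while the Th1 log2 ratio was 0.04. The difference of -1.09 between these ratios was not tested. Rgs14 also had 1 probe set.

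Rgs19, of the RZ subfamily and a regulator of Gi alpha subunits that sits on vesicle membranes, varied least among the members that were measured. Its signals were 3910.4 and 3959 in Th1 cells and 3170.1 and 2889 in Th17 cells, in the order CD30low and CD30high. The brightest array was 1.37-fold above the dimmest, and no neighbours in the order were further apart than 0.30 (log2). A second probe set had 2079 and 2838 in Th1 cells, a log2 ratio of 0.45 where the first gave 0.02, so the probe sets differed in Th1 cells by more than the probe set SD. In Th17 cells both gave -0.13.

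**Figure D2:**
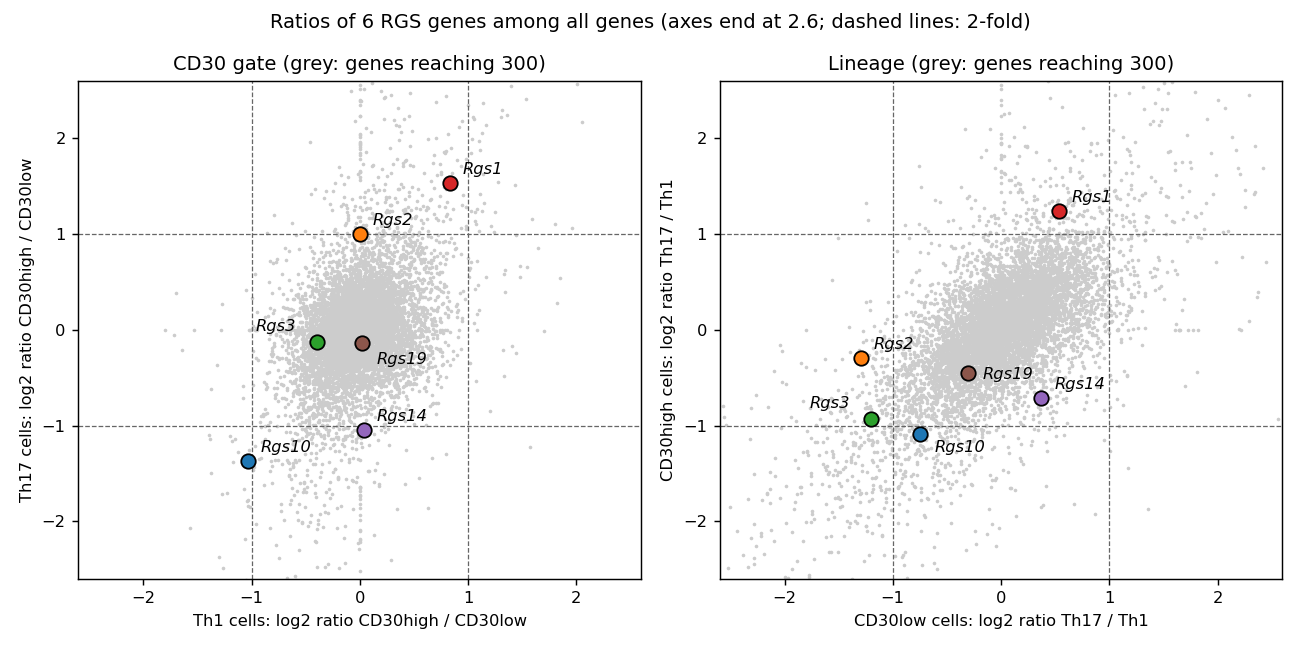
Log2 ratios of the 6 measured RGS genes (coloured points) among all genes that reached a signal of 300 on any array (grey), with dashed lines at 2-fold. On the left, CD30high over CD30low is plotted for Th1 cells (x axis) and Th17 cells (y axis), and Rgs1 (0.83 and 1.54) and Rgs10 (-1.03 and -1.37) lie at opposite ends; on the right, Th17 over Th1 is plotted for CD30low cells (x axis) and CD30high cells (y axis), and Rgs3 (-1.21 and -0.93) lies below 0 on both.

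The 250 bases before the annotated start of Rgs2 and Rgs10 are shown because these members passed the rule in opposite directions in Th17 cells. They are RefSeq sequences of build GRCm38.p6, on the minus strand, written 5′ to 3′, at chr1:144004150-144004399 and chr7:128418173-128418422. Capitals mark TGACG, the cAMP response element half-site, and GGGCGG, the GC box, searched on both strands. These motifs do not overlap here.
Rgs2: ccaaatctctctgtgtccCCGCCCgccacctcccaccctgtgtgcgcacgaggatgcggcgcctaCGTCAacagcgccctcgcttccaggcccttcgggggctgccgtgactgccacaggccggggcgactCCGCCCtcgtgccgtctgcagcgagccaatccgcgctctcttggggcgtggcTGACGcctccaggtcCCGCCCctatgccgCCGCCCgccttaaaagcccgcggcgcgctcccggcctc
Rgs10: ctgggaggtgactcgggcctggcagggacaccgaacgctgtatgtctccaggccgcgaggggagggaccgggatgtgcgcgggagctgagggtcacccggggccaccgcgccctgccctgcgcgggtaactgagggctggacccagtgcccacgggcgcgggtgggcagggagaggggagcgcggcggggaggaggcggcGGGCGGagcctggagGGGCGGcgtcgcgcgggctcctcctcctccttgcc
The window of Rgs2 held 2 copies of TGACG and 4 of GGGCGG, and that of Rgs10 held 0 of TGACG and 2 of GGGCGG. Among all 32851 windows of this length in the table, 17.8% held TGACG and 32.7% held GGGCGG. A match describes the letters only. The table had windows for 5 of the 7 members (Rgs2, Rgs3, Rgs10, Rgs16 and Rgs19), and TGACG was found in that of Rgs2 alone. Rgs2 and Rgs1 lie in one run of RGS genes on chromosome 1, in the order Rgs2, Rgs13, Rgs1, Rgs21 and Rgs18 among protein-coding genes. Of their neighbours, Rgs13 and Rgs18 were below 100 on all arrays and Rgs21 was not named in the annotation used here. Rgs16, also on chromosome 1, is next to Rgs8, which was below 100 on all arrays as well.

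Between the lineages, 2 of 6 members passed the rule in CD30low cells, where 9.35% of 7857 genes passed, and 2 of 6 in CD30high cells, where 11.8% of 7979 genes passed. In CD30low cells Rgs2 (2.45-fold, log2 ratio -1.29) and Rgs3 (2.31-fold, log2 ratio -1.21) were lower in Th17 than in Th1 cells, where 3.53% of genes were higher and 5.83% lower. The Rgs2 call was lost with a floor of 200 (log2 ratio -0.98), with the mean of all its probe sets (-0.56) and with a signal limit of 500. In CD30high cells Rgs1 was higher in Th17 cells (2.37-fold, log2 ratio 1.25) and Rgs10 lower (2.12-fold, log2 ratio -1.08), where 4.98% of genes were higher and 6.86% lower. Rgs2 had a log2 ratio of -0.29 in CD30high cells, and the brightest Rgs3 probe set stayed just under the limit with -0.93, whereas its second probe set was 3.44-fold lower. With the arrays scaled to their medians Rgs10 no longer passed in CD30high cells (log2 ratio -0.77). That scaling moved the median log2 ratio of all genes from -0.01 to 0.28 in this comparison and from 0.00 to -0.18 for the CD30 comparison of Th1 cells.

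For each member past the rule, the genes with the most similar profile were sought by the distance between log2 signals, centred on their mean over the 4 arrays, among 8226 genes with a signal of at least 300 on any array. With 4 arrays such likeness is a description only. Nearest to Rgs1 were Ncs1 (distance 0.22), Bcar1 (0.22) and Pla2g12a (0.23). The last of these, a phospholipase gene, had 805 and 1498 in Th1 and 1227 and 4197 in Th17 cells, CD30low first. Nearest to Rgs2 were Ptgr1 (0.10), Slc66a2 (0.12) and Chchd5 (0.12), and nearest to Rgs3 were Ranbp10 (0.03), Usp48 (0.10) and Qsox1 (0.11). Rgs10 was closest to Tle4 (0.13), Acss1 (0.22) and Crybg2 (0.24). Tle4, a transcriptional corepressor gene, had 839 and 373 in Th1 and 452 and 174 in Th17 cells. Rgs14 was closest to Afdn (0.09), Ska3 (0.12) and Ikzf2 (0.12), a transcription factor gene with 681 and 723 in Th1 and 976 and 425 in Th17 cells.

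The other genes of the pathway were taken from 9 lists of 128 genes, of which 117 were named in the annotation. In Th1 cells 1 of 63 genes that reached 300 passed between CD30high and CD30low cells (1.59%, against 1.28% of all genes). It was Cxcr4, the receptor of CXCL12, which was higher. With the arrays scaled to their medians Cxcr6, Ptger3 and Ptgir passed too, as lower, which made 1 higher and 3 lower, and with quantile normalization Ptger3 did. In Th17 cells 17 of 68 passed (25%, against 7.6% of all genes), 8 higher and 9 lower. Between the lineages 13 of 65 passed in CD30low cells (20%, against 9.35% of all genes) and 20 of 68 in CD30high cells (29.4%, against 11.8%). The lists were drawn up with earlier results of these arrays known, some of which concerned chemokine receptors.

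Receptors gave most of the Th17 differences. Of 21 named chemoattractant receptors, 14 were measured, with a signal of at least 100 on either array. Of these 6 were higher and 1 was lower in CD30high Th17 cells, with a median log2 ratio of 0.75, where the median of all measured genes was 0.02. In Th1 cells the list median was -0.06. Besides Cxcr4, the higher genes were those of the chemokine receptors Ccr1, Ccr2 and Ccr6, of Ltb4r1 and of Gpr183, and the lower one was Cxcr6. Ccr2 and Cxcr4 no longer passed with median scaling, nor Cxcr6 with quantile normalization, and the other Ccr2 probe sets gave 1.83-fold, 1.65-fold and 1.19-fold. Ltb4r1, the receptor of leukotriene B4, had 1907 and 4310 in CD30low and CD30high Th17 cells (2.26-fold), and 2566 and 2811 in Th1 cells. Gpr183, which senses oxysterols and guides cells within lymphoid tissue, had 1058 and 2543 in Th17 cells (2.40-fold), and 1301 and 1357 in Th1 cells. Among 11 measured receptors for lipids, protons and proteases, the proton sensor Gpr65 was higher in CD30high Th17 cells, at 745 and 4025 (5.40-fold). In the same list P2ry10 (2.06-fold), the lysophosphatidylserine receptor Gpr174 (2.85-fold) and the thrombin receptor F2r (2.86-fold) were lower, and the median log2 ratio was -0.30. A second probe set of Gpr174 and one of F2r gave 2.69-fold and 4.15-fold in the same direction.

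Of the G protein alpha subunits, 0 of 8 measured in Th1 cells and 0 of 9 in Th17 cells passed between CD30high and CD30low cells, counts too small to set apart from the shares of all genes. The Th17 differences under the fold limit included those of Gna15 (1.80-fold), Gnaq (1.66-fold) and Gna12 (1.58-fold). Gna15 (206 and 115), Gna12 (187 and 294) and Gnal (66.1 and 132) had signals below 300 on both Th17 arrays. Gna12 was also below 300 on both Th1 arrays (207 and 256). In those comparisons these genes could not have passed the rule at any fold. Gnai2, the main Gi subunit of lymphocytes and a substrate of most RGS proteins, had 5634 and 6452 in Th1 and 7767 and 6862 in Th17 cells. Gnaq, the substrate for which Rgs2 has its preference, had 1161 and 1144 in Th1 and 749 and 452 in Th17 cells. Of the beta and gamma subunits Gnb5 passed, higher in CD30high Th17 cells, with 738 and 1859.8 (2.52-fold), and with 664 and 684 in Th1 cells. Gnb5 is the beta subunit that pairs with RGS proteins of the R7 subfamily in place of a gamma subunit. Of that subfamily Rgs6 and Rgs7 were below 100 on all arrays and Rgs9 was between 98.4 and 196. Rgs11, its brightest gene, had 223 and 176 in Th1 and 308 and 418 in Th17 cells. It was 2.38-fold higher in Th17 than in Th1 cells among CD30high cells, and its CD30 log2 ratio of 0.44 in Th17 cells did not pass.

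In the remaining lists Grk6, Axin2 and 3 effectors passed in Th17 cells, and all were lower in CD30high cells. Grk6, a kinase that desensitises chemokine receptors, had 7875 and 3639 in CD30low and CD30high Th17 cells (2.16-fold), and 7286 and 6237 in Th1 cells. Its other probe sets gave 1.84-fold and 2.10-fold. Axin2, which carries an RGS homology domain but acts in Wnt signalling, had 315 and 139 in Th17 cells (2.28-fold). The other RGS homology genes did not pass. Of 17 measured effectors 3 were lower in CD30high Th17 cells, Pik3r5 (3.27-fold), Rasgrp1 (2.40-fold) and Rasgrp2 (2.77-fold). Of all measured genes 6.00% passed there in either direction. Pik3r5 encodes the adaptor of the PI3 kinase that G beta-gamma activates, and had 689 and 210 in Th17 cells against 1297 and 1088 in Th1 cells. One further Rasgrp1 probe set gave 2.39-fold and another 1.21-fold. The 7 other modulators of G alpha subunits, such as the exchange factor and chaperone Ric8a, had none past the rule in either CD30 comparison, with median log2 ratios of 0.11 in Th1 and 0.42 in Th17 cells.

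**Figure D3:**
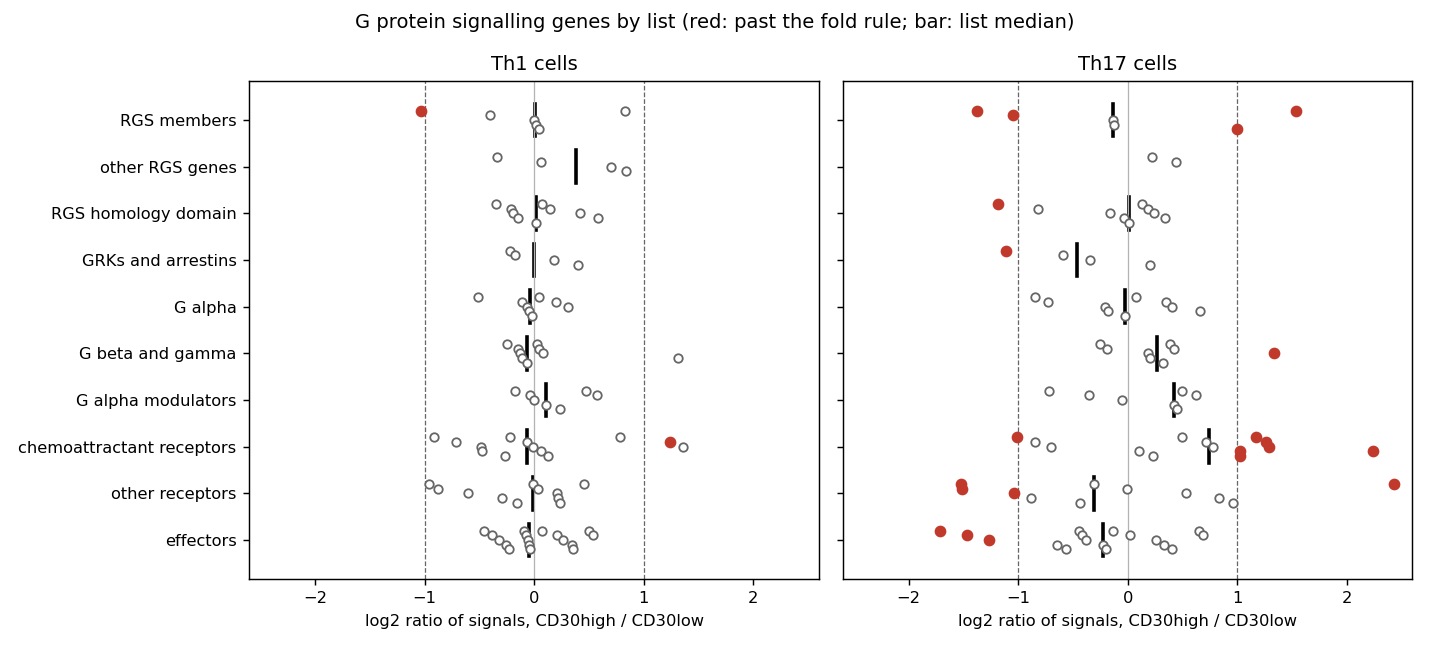
The x axis gives the log2 ratio, CD30high over CD30low, for the measured genes of 10 pathway lists (y axis, RGS members included), for Th1 cells on the left and Th17 cells on the right, 1 array per group. Points are genes, red where they passed the fold rule, and bars are medians of lists with at least 3 measured genes; 1 red point lies outside the RGS members in Th1 cells and 17 in Th17 cells.

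Receptors also differed between the lineages. Cxcr6 was 23.9-fold lower in Th17 than in Th1 cells among CD30low cells and 25.5-fold lower among CD30high cells, and Cxcr3 was 6.39-fold and 3.31-fold lower. Ccr7, the receptor for lymph node entry, was 3.03-fold and 2.18-fold higher in Th17 cells, and the prostaglandin E2 receptor Ptger2 was 2.29-fold and 2.86-fold higher. Ptger3, another receptor for the same ligand, was 7.95-fold lower among CD30low cells, with 798 in Th1 and 100.4 in Th17 cells, the latter close to the floor. Among CD30high cells Ptger3 was at least 4.11-fold lower, with 411 and 33.1. Gna15, a Gq-type alpha subunit of blood cells, was 2.95-fold and 3.73-fold lower, and Rasgrp2 3.19-fold and 9.27-fold lower. The other pathway genes past the rule among CD30low cells were Ptger4, higher in Th17 cells, and Gng2, Ccr2, S1pr4, Lpar6 and Prex1, lower. Among CD30high cells they were Rgs11, Gnb5, Ccr1 and Gpr65, higher, and Arhgef1, Gnaq, S1pr4, P2ry10, Gpr174, Lpar6, F2r, Adcy7 and Pik3r5, lower. Among CD30high cells 6 pathway genes were higher and 14 lower, which became 12 higher and 11 lower when the arrays were scaled to their medians.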

How the data were processed

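RNA of the 4 sorted populations was read on 4 Affymetrix whole-genome arrays, 1 for each. The deposited intensity values were linear probe set signals made by the authors with the GeneChip Operating Software per the methods and with Affymetrix Expression Console per the labels; version, algorithm and scaling target were not given in the sources used here. Such scaling hides a change common to most genes. No detection calls were used. Array number limits the precision of all values, and no sequencing depth applies.

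Probe sets were named from GEO's platform annotation with symbols updated by gene identifier, which matched 34741 of 34945 probe sets with 1 symbol; 932 with several symbols and 9160 unnamed ones were not used. The floor was 100, the fold limit 2 and the signal limit 300. All 7 members were named, with pathway genes past the rule in a CD30 comparison, up to 4 per list in a lineage comparison, and the 3 nearest genes of each member past the rule. Members and lists were chosen with earlier results of these data known. The fold rule was run on simulated data, and its error rate on the real arrays was not tested. The 9 alternatives covered scaling, floor, probe set choice, fold limit and signal limit. Groups came from the sample titles, and no comparison had a test. Python 3.11.15, numpy 2.4.6, pandas 2.3.3 and matplotlib 3.10.9 were used.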

Additional observations from a re-analysis of the deposited data

Results flagged for a closer look

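Among genes of the pathway lists that reached 300 in both lineages, there were 4 whose CD30 ratio pointed in opposite directions in the 2 lineages, each time by more than the probe set SD, and no RGS member was among them. The differences between the lineages were not tested. The share of all genes that meets the same rule was not determined, so the count only describes these 4. Median scaling moved the median log2 ratio of all genes from 0.00 to -0.18 in Th1 cells. Whether the 4 genes still meet the rule under that scaling was not examined. Cxcr3 had a log2 ratio of -0.71 in Th1 and 0.24 in Th17 cells, a difference of 0.95. Grk5, a receptor kinase, had 0.40 and -0.59, a difference of -0.99. Prex1, a Rac exchange factor that responds to G beta-gamma, had -0.46 and 0.26, a difference of 0.72. Gng10, a gamma subunit, had -0.25 and 0.21, a difference of 0.46, and was only just past the SDs of 0.24 and 0.20.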

How the results depend on the processing

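The number of members past the rule was 1 in Th1 and 4 in Th17 cells for CD30high against CD30low, and 2 in CD30low and 2 in CD30high cells between the lineages. With a limit of 3-fold it was 0 in all 4 comparisons. Of all genes, 0.205% then passed in Th1 and 3.28% in Th17 cells for the CD30 gate. Between the lineages 3.61% passed in CD30low and 5.20% in CD30high cells. With 1.5-fold, 2 members passed in Th1 cells, where 7.62% of all genes did. In CD30high cells 4 members then passed between the lineages, where 28.4% of all genes did. In CD30low cells 1 member passed with a floor of 200, with the mean of all probe sets and with a signal limit of 500. Of all genes 8.03%, 9.62% and 8.57% then passed. The member lost was Rgs2 each time, and the mean took in an Rgs2 probe set that was below 100 on all arrays. In CD30high cells 1 member passed with median scaling, where Rgs10 was lost and 14.6% of all genes passed. The other counts stayed within 1.5 times of these values, and no call changed sign under any of the 5 alternatives of scaling, floor and probe set choice. In Th17 cells Rgs2 was lost with median scaling, a floor of 200, the mean of probe sets and a signal limit of 500. Quantile normalization changed no call of a member. No paired analysis was possible because each group had 1 array. Values near 100 cannot be told from background here, which limits Rgs16 and most RGS genes outside the members.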

Other observations

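A few dim genes of the pathway had a higher signal on the CD30high than on the CD30low Th1 array. The CD30high Th1 array also had the higher median signal of all probe sets, 86.0 against 73.1. Rgs9 had 110 (CD30low) and 196 (CD30high) in Th1 cells and Rgs20 had 13.9 and 163, with Th17 signals of 99.9 and 98.4 for Rgs9 and of 40.4 and 85.0 for Rgs20. Gng11, a gamma subunit, had 94.7 and 248 in Th1 and 26.4 and 55.8 in Th17 cells. None of these reached 300 on any array, and the other probe sets of Rgs9 and Rgs20 were below 100 on all arrays.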
